A study of Mus musculus with 2 samples.

Results

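The 10 genes described here mark or build the trophoblast and were followed, each by its own row in the deposited table: *Tead4*, *Cdx2*, *Eomes*, *Elf5*, *Tfap2c*, *Gata2*, *Gata3*, *Krt8*, *Krt18* and *Cdh3*. They were taken by symbol, and all 10 were found among the 48550 rows of the table. The cells were F121-6, hybrid female embryonic stem (ES) cells of the mouse, with 1 chromosome set of the 129 strain and 1 of *Mus musculus castaneus* (cas). They grew with serum and leukaemia inhibitory factor on feeder fibroblasts whose division had been blocked with mitomycin C. Total nuclear RNA was sequenced in 2 libraries of the same line, and every comparison set the 129 allele against the cas allele within each library. Which strain was the mother, and the strain of the feeders, are not in the labels.

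Trophoblast is the first lineage to part from the embryo proper, and it gives rise to the placenta. In outer cells of the early embryo, TEAD4 together with the Hippo pathway's coactivator YAP turns on *Cdx2* and *Gata3*, and *Eomes*, *Elf5* and *Tfap2c* maintain the trophoblast stem cells that follow. ES cells come from the inner cell mass, where this programme is held down by factors such as OCT4, and the *Elf5* promoter is known to be methylated in them.

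Library 1 held 28473308 reads assigned to an allele and library 2 held 31358554, with 53.6% and 54.2% of them from 129. The median tested gene had 55.3% of its reads from 129 in library 1 and 56.0% in library 2, so columns were scaled to the typical gene before alleles were compared. The log2(129/cas) values below are on that scale, from CPM (reads scaled to library size) plus a pseudocount of 0.1, and a positive value is higher from 129. Genes with 20 or more allele reads in both libraries were tested. Of the 15509 genes tested, 3388 were higher from 129 and 3383 from cas at an adjusted p under 0.05 in limma, which is 43.7% called, 21.8% in each direction. Nothing in the labels places the libraries in separate cultures, so the p-values measure a spread that may be technical, pooled over genes of like abundance.

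Of the 10 trophoblast genes, 9 were tested, and *Cdx2* had too few reads. *Gata2* was higher from 129, *Tead4* and *Eomes* were higher from cas, and 6 were not called. The share called was 33.3%, beside 43.7% of all tested genes, and with only 9 genes tested this gap is not read as a difference. The median log2 ratio of the 9 was 0.12 (0.11 in library 1 and 0.10 in library 2), beside 0.00 for all tested genes. The 9 genes ran from -0.95 for *Eomes* to 2.75 for *Gata2*, and the ratio was above 0 in both libraries for 5 of them and below 0 in both for 3.

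How many of the genes were called depended on the setting, as it did for all genes. With 1 shared library size 3 of the 9 were higher from 129 and 0 from cas, beside 41.9% and 9.62% of all tested genes. With the deposited column totals 2 were higher from 129 and 1 from cas (27.0% and 16.6% of all), and an exact binomial test within each library gave 4 and 2 (27.6% and 17.7%). That test compared each gene with the library's overall 129 share, 53.6% or 54.2%, and kept the larger adjusted p of the libraries. Its reference is thus that of the column totals, not the typical gene. Without the pairing of alleles by library 1 was higher from 129 and 0 from cas (13.8% and 11.4%), and the same numbers came from the deposited RPKM (9.21% and 7.41%). Asking 100 reads of each library left 4 genes tested, 0 higher from 129 and 1 from cas (23.0% and 25.2%). With no filter (14.3% and 13.8%) and with voom weights (20.9% and 21.8%) 1 gene was called in each direction, and the counts were 1 and 2 with pseudocounts of 0.5 (22.3% each) and 1 (21.8% and 21.9%).

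Reference promoter sequence in the RefSeq table (build GRCm38.p6, the same assembly as mm10) matched 7 of the 10 genes. *Tfap2c*, *Tead4* and *Cdh3* were the others. Shown are the 250 bases before the start for *Gata2*, which has a distal and a proximal start, for its paralogue *Gata3*, and for *Eomes*, since they have the largest fitted ratios of the transcription factors among the 10 genes, although that of *Gata3* was not called. They are the sequence of the reference strain, 5′ to 3′ on the gene's strand, and do not show where 129 and cas differ. Capitals mark a match to any of 6 motifs, searched on both strands: AGATAA for the GATA family, GGAATG for TEAD factors, GCCNNNGGC for AP-2 factors, AGGAAG for ETS factors, GGTGTGA for T-box factors and TATAAA for the TATA box. The distal *Gata2* stretch is chr6:88193641-88193890 (plus strand), the proximal one chr6:88198414-88198663 (plus), that of *Gata3* chr2:9878601-9878850 (minus) and that of *Eomes* chr9:118477939-118478188 (plus). The RefSeq start of *Gata3* used here lies inside the longer annotated span given for the gene below.
Gata2 distal: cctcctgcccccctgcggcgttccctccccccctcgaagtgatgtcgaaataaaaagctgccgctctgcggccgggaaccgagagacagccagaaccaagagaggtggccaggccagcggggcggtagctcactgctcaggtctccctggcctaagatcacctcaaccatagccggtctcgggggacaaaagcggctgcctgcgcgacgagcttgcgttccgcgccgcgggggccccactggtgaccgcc
Gata2 proximal: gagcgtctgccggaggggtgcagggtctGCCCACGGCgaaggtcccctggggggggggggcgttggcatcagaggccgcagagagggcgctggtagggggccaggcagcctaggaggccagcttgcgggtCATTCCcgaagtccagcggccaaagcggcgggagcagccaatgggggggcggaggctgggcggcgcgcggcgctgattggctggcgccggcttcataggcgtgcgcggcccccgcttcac
Gata3: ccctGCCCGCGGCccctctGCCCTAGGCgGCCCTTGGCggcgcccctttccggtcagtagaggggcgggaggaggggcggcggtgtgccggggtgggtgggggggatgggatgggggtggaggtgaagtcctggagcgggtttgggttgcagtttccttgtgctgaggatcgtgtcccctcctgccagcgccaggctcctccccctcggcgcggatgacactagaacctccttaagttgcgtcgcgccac
Eomes: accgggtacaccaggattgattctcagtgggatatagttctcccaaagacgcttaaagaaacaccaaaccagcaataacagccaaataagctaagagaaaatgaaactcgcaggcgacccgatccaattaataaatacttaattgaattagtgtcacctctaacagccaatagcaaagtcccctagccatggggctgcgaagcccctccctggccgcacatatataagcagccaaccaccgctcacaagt

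These sequences differ in their CpG content. Both *Gata2* stretches are rich in CpG, with 22 at the distal and 24 at the proximal start, and that of *Gata3* has 19, while that of *Eomes* has 8, near the median of 6 over 32851 promoters of the same length. *Gata3* holds 3 AP-2 matches. The proximal *Gata2* stretch holds 1, at 222 to 214 bases before the start, and also 1 TEAD match, at 120 to 115. *Cdx2* and *Krt18* also hold an AP-2 match, which made 4 of the 9 member promoters, beside 13.7% of all promoters. All promoters were not matched to these in G and C content, so the count does not show an enrichment. TEAD matches were in 2 of the 9, those of *Gata2* and *Elf5* (12.6% of all promoters). ETS matches were in 2 (29.5%), GATA matches in 1 (9.99%), T-box matches in 1 (3.33%) and TATA in 0 (12.4%). No match says only that these letters are not in the window.

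The genes spanned a wide range of read density. Allele reads per kb of the annotated gene span ran from 39.5 in library 1 and 49.5 in library 2 for *Cdh3*, through 33.1 and 52.8 for *Tead4* and 44.3 and 38.4 for *Tfap2c*, down to 0 and 0.619 for *Cdx2*. The ranges of these first 3 overlapped, and their order changed between the libraries. *Krt8* (14.4 and 16.7 per kb) and *Eomes* (12.4 and 16.2) followed with overlapping values, then *Krt18* (6.76 and 5.72) and *Gata2* (3.73 and 5.02). *Elf5* had 0.687 and 1.76 per kb and *Gata3* 1.15 and 0.759, again overlapping. For *Gata3* the span used reaches well beyond the start at which its deposited row is centred, which lowers its density. The summed density placed *Cdh3* at percentile 81.0, *Gata2* at 46.8 and *Cdx2* at 26.8 of 21043 protein-coding rows. The span includes introns, and whether reads in introns were counted is not stated, which bears on the ranking of long genes. Only reads over a base that differs between the strains can be assigned, so this density also depends on how many such bases a gene holds. It is therefore not a measure of expression alone, and fewer cells with a transcript cannot be told apart from less RNA per cell.

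**Figure D1:**
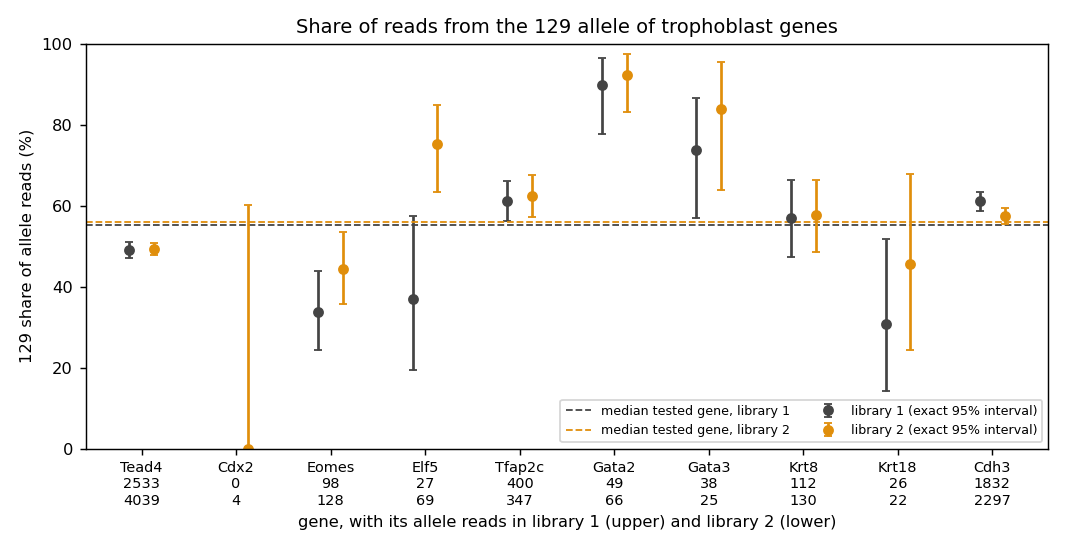
The vertical axis gives the percentage of a gene's allele reads that came from 129 in library 1 and library 2, with exact 95% binomial intervals, and dashed lines mark the median tested gene (55.3% and 56.0%). Gata2 stands at 89.8% and 92.4%, Tead4 at 49.1% and 49.4%, and Elf5 lies on opposite sides of the lines.

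*Tead4* encodes the TEA-domain factor at the top of the trophoblast programme (chromosome 6, 128224288 to 128300823, mm10, minus strand) and had the most reads of the 10 genes. It had 1243 reads from 129 and 1290 from cas in library 1, and 1994 from 129 and 2045 from cas in library 2. The 129 share was 49.1% (exact 95% interval 47.1 to 51.0) and 49.4% (47.8 to 50.9), nearly even, and below the median gene in both libraries. Relative to the typical gene *Tead4* was higher from cas, with a log2 ratio of -0.37 (SE 0.08, limma adjusted p = 7e-05, lower from 129 in 2 of 2 libraries), a 1.29-fold difference. With 1 library size shared by the alleles the ratio was -0.04 (adjusted p = 0.69), so the call is a statement about *Tead4* relative to other genes. Without the pairing of alleles by library the ratio stayed at -0.37 with an adjusted p of 0.18. The overlapping processed pseudogene Gm21893 had 0 reads from either allele.

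*Cdx2*, the caudal-type homeobox factor that defines the trophectoderm (chromosome 5, 147300805 to 147307270, minus strand), had almost no allele reads. No read came from 129 in either library, and cas gave 0 reads in library 1 and 4 in library 2. The exact 95% interval of its 129 share in library 2, 0.0 to 60.2%, covers most outcomes, so no allelic difference was detectable at this depth. Of the 3 tested genes within 250 kb of *Cdx2*, Polr1d, a subunit shared by RNA polymerases I and III, was higher from 129, and the other two were not called. A count near 0 does not by itself show a silent gene in this table. *Sox2*, a gene that ES cells are known to express, also had 0 allele reads. Its span lies inside that of *Sox2ot* on the same strand, and no annotated gene overlaps *Cdx2*. How reads of overlapping genes were counted is not stated, and the reason for either count was not tested.

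*Eomes*, a T-box factor of trophoblast stem cells that also acts in the primitive streak, was higher from cas (chromosome 9, 118478212 to 118486132, plus strand). It had 33 reads from 129 and 65 from cas in library 1, and 57 from 129 and 71 from cas in library 2. Cas reads were the more numerous in both libraries, with 129 shares of 33.7% (24.4 to 43.9) and 44.5% (35.7 to 53.6), both under the median gene. The log2 ratio was -0.95 (SE 0.40, adjusted p = 0.044 in limma, 2 of 2 libraries), from -1.25 in library 1 and -0.65 in library 2. This call sat at the threshold: the adjusted p was 0.055 with voom weights, 0.071 with the deposited column totals, 0.074 with no filter, 0.098 without the pairing of alleles and 0.18 with 1 shared library size. The direction was toward cas in each of these.

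*Elf5*, an ETS factor of trophoblast stem cells, did not repeat between the libraries (chromosome 2, 103411688 to 103450989, plus strand). Library 1 had 10 reads from 129 and 17 from cas, and library 2 had 52 from 129 and 17 from cas. The 129 shares of 37.0% (19.4 to 57.6) and 75.4% (63.5 to 84.9) had intervals that did not overlap, on opposite sides of the median gene. The log2 ratio was -0.97 in library 1 and 1.20 in library 2, and 0.12 over both (SE 0.64, 95% interval -1.16 to 1.39, adjusted p = 0.90). The cas reads were the same number in each library, and the 129 reads made the difference. *Elf5* was the only tested gene of the 9 whose libraries went opposite ways.

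*Tfap2c* encodes AP-2 gamma, a factor of trophoblast and germ cells (chromosome 2, 172549593 to 172558622, plus strand). It had 245 reads from 129 and 155 from cas in library 1, and 217 from 129 and 130 from cas in library 2. Both libraries leaned to 129 by a like amount, with shares of 61.2% (56.3 to 66.1) and 62.5% (57.2 to 67.6). Relative to the typical gene the ratio was 0.37 (SE 0.22, 95% interval -0.06 to 0.80, adjusted p = 0.17 in limma), which is no call. With 1 shared library size it was 0.69 with an adjusted p of 0.0047, and an exact binomial test within each library gave an adjusted p of 0.0055.

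*Gata2*, a zinc finger factor of trophoblast and of blood progenitors, had the largest allelic difference of the 9 (chromosome 6, 88193891 to 88207032, plus strand). It had 44 reads from 129 and 5 from cas in library 1, and 61 from 129 and 5 from cas in library 2. Reads from 129 outnumbered those from cas in both libraries, with shares of 89.8% (77.8 to 96.6) and 92.4% (83.2 to 97.5), and neither interval reached the median gene. The log2 ratio was 2.75 (SE 0.68, 95% interval 1.41 to 4.10, limma adjusted p = 0.00044, higher from 129 in 2 of 2 libraries), a 6.73-fold difference. Its absolute ratio lay at percentile 95.9 of all tested genes. With so few cas reads the fold depends on the pseudocount: the ratio was 2.04 with a pseudocount of 0.5 and 1.58 with 1. The call was kept in every alternative in which *Gata2* was tested, and it did not enter the test when 100 reads were asked of each library.

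Markers of fibroblasts, the feeder cell type, were also higher from 129 in these libraries. Of 25 fibroblast markers, 21 were tested. Of these, 16 were higher from 129 and 0 from cas, beside 21.8% of all tested genes in each direction. The other 5 markers were not called, and the median log2 ratio of the markers was 3.45. Their summed reads were 41585 from 129 and 21331 from cas in library 1, and 50246 from 129 and 22027 from cas in library 2, while S100a4, Lum and Twist1 had 0 reads. Most of these reads were those of Fn1, and without it the sums were 17413 from 129 and 3298 from cas in library 1, and 24477 from 129 and 4373 from cas in library 2. The markers with the most reads were fibronectin, Fn1, with a 129 share of 58.3% ± 1.46 (SD, n = 2), the hyaluronan receptor Cd44 with 96.5% ± 0.953 and the actin-binding Cald1 with 68.1% ± 1.32. The share of *Gata2* was 91.1% ± 1.86 (n = 2). The part of feeder RNA in the differences of *Gata2* and the other trophoblast genes was not tested.

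*Gata3*, the paralogue that TEAD4 turns on in parallel with *Cdx2*, leaned the same way without a call (chromosome 2, 9857078 to 9890034, minus strand). It had 28 reads from 129 and 10 from cas in library 1, and 21 from 129 and 4 from cas in library 2. The shares were 73.7% (56.9 to 86.6) and 84.0% (63.9 to 95.5), above the median gene in both libraries. The log2 ratio was 1.41 (SE 0.77, 95% interval -0.12 to 2.93, adjusted p = 0.13 in limma). An exact binomial test within each library gave an adjusted p of 0.026. It does not use the spread between libraries, and its reference is the overall 129 share of each library, not the typical gene. The intervals of *Gata2* and *Gata3* overlapped in each library. The deposited window of *Gata3*, 9876101 to 9881100, lies inside the annotated span and does not reach its start, so the 2 gene models differ. Of 3 annotated genes that overlap this longer span, 1 lies on the same strand, and all 3 had 0 reads.

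*Krt8* and *Krt18* encode the keratins that pair into the filaments of simple epithelia, and they lie close together on chromosome 15. *Krt8* (101996698 to 102004482, minus strand) had 64 reads from 129 and 48 from cas in library 1, and 75 from 129 and 55 from cas in library 2. Its shares of 57.1% (47.4 to 66.5) and 57.7% (48.7 to 66.3) were close to the median gene, and its ratio of 0.10 (SE 0.38, 95% interval -0.65 to 0.85, adjusted p = 0.86 in limma) was not called. *Krt18* (102028180 to 102032027, plus strand) had 8 reads from 129 and 18 from cas in library 1, and 10 from 129 and 12 from cas in library 2. Its shares of 30.8% (14.3 to 51.8) and 45.5% (24.4 to 67.8) were under the median gene, with wide intervals that overlapped those of *Krt8*. Its ratio was -0.93 (SE 0.80, 95% interval -2.51 to 0.66, adjusted p = 0.37). At this depth the *Krt18* interval holds differences of up to 2.51 toward cas and up to 0.66 toward 129 on the log2 scale. Both keratins have processed pseudogenes elsewhere in mammalian genomes, and the treatment of reads that fit such copies is not stated.

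*Cdh3* encodes P-cadherin, the adhesion protein first described in placenta (chromosome 8, 106510891 to 106557297, plus strand). It had 1119 reads from 129 and 713 from cas in library 1, and 1320 from 129 and 977 from cas in library 2. The shares of 61.1% (58.8 to 63.3) and 57.5% (55.4 to 59.5) had intervals that met only between 58.8 and 59.5%. The log2 ratio was 0.34 in library 1 and 0.09 in library 2, and 0.21 over both (SE 0.10, adjusted p = 0.070 in limma, unadjusted p = 0.032), without a call. With the deposited column totals the ratio was 0.32 (adjusted p = 0.0052) and with 1 shared library size 0.54 (adjusted p = 5.5e-07). The E-cadherin gene *Cdh1*, whose start lies 92.5 kb from that of *Cdh3*, was higher from cas, with a 129 share of 43.3% ± 0.242 (n = 2) and a ratio of -0.72 (SE 0.06, adjusted p = 4.6e-19). The difference between the cadherin genes was not tested.

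**Figure D2:**
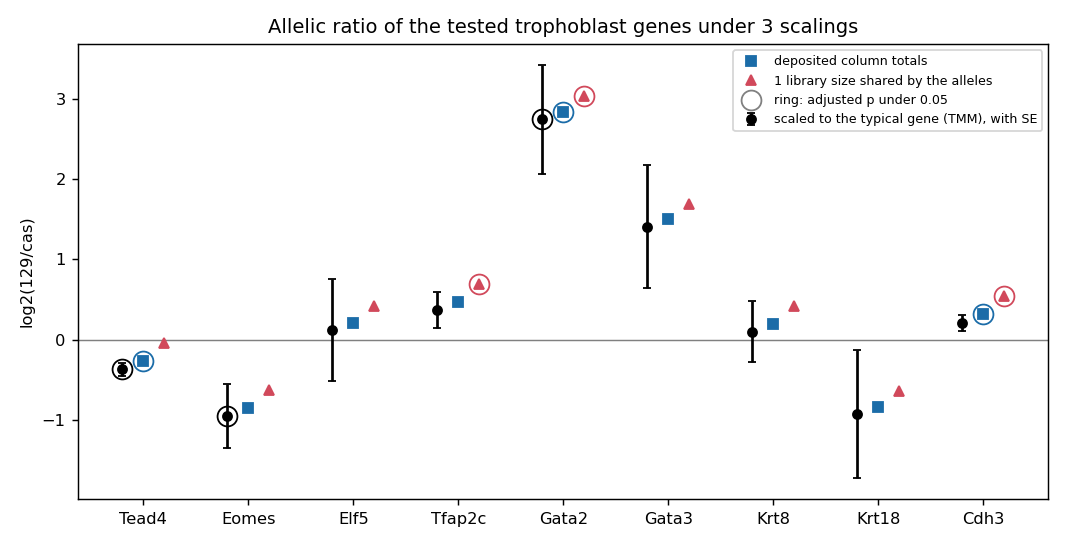
The vertical axis gives log2(129/cas) of the 9 tested genes under 3 scalings of the columns, with the SE for the scaling to the typical gene and a ring around values with an adjusted p under 0.05. Gata2 is ringed under each scaling, at 2.75, 2.84 and 3.04, whereas Tead4 lies at -0.37, -0.27 and -0.04 and is ringed under the first 2.

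For each called gene, the tested genes with the nearest values over the 4 columns were found by Euclidean distance of log2(CPM + 0.1). The same columns give the ratio, so the nearness of the ratios below follows from this choice. Nearest to *Gata2* were Prn, at 0.40, with a ratio of 3.00, and AI427809, at 0.58, with a ratio of 3.29. Nearest to *Eomes* were Gpx7 (0.24), a glutathione peroxidase family gene, and Rnaset2a (0.30), a ribonuclease gene, with ratios of -1.05 and -1.11. Nearest to *Tead4* were Creb3l2 and Ibtk, both at 0.07, with ratios of -0.37 and -0.36.

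The surroundings of the genes differed from place to place. Over all 10 genes, 51 genes within 250 kb of any of them were tested, of which 13 were higher from 129 and 13 from cas, with a median of 0.01. That is close to the background of 21.8% in each direction. Around *Tead4*, 7 of 13 tested neighbours were higher from cas and 0 from 129. The tetraspanin gene Tspan9 had -0.83 (SE 0.11), the protease inhibitor Pzp -0.57 (SE 0.15) and the HSP90 cochaperone Fkbp4 -0.38 (SE 0.09), the last close to the -0.37 of *Tead4* itself. Fkbp4 and Pzp were not called with 1 shared library size (-0.05 and -0.25) or on the deposited RPKM, nor Fkbp4 without the pairing of alleles. The largest ratio near *Tead4* was that of Rpl18-ps2, a ribosomal protein pseudogene 12.5 kb away, with 0 reads from 129 and 20 from cas in library 1, and 9 from 129 and 39 from cas in library 2. Reads of such a copy can be shared with its parent gene, so its value is uncertain. Of the 13, 2 were higher from 129 and 2 from cas with 1 shared library size, beside 41.9% and 9.62% of all tested genes. Asking 100 reads of each library left 9 neighbours tested, 4 of them higher from cas, beside 25.2% of all. The *Tead4* count was 3 without the pairing of alleles and 1 on the deposited RPKM.

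Around *Gata2*, 2 of 4 tested neighbours were higher from 129. These were the chaperone gene Dnajb8, 29.0 kb away, with 0.67 (SE 0.24, adjusted p = 0.019), and the oligosaccharyltransferase gene Rpn1, with 0.35 (SE 0.13, adjusted p = 0.019), neither of which reached the 2.75 of *Gata2*. Neither was called without the pairing of alleles, and 1 neighbour was called on the deposited RPKM. Around *Eomes*, the integrin gene Itga9 was higher from 129 (0.63, SE 0.06), the opposite direction to *Eomes*, and the other 4 tested neighbours were not called; with 1 shared library size 2 were higher from 129, and on the deposited RPKM 0 were. Around *Tfap2c*, 4 of 8 tested neighbours were higher from cas and 1 from 129, and around *Gata3* 2 of 4 were higher from 129. Near *Krt18*, 5 of 10 were higher from 129 and 1 from cas. These sets are small, and 21.8% of all tested genes were called in each direction. Called neighbours of *Tfap2c* had as few as 81 reads over both libraries. The 13 and 13 calls over all neighbours became 7 and 7 without the pairing of alleles. On the deposited RPKM they became 4 and 4.

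**Figure D3:**
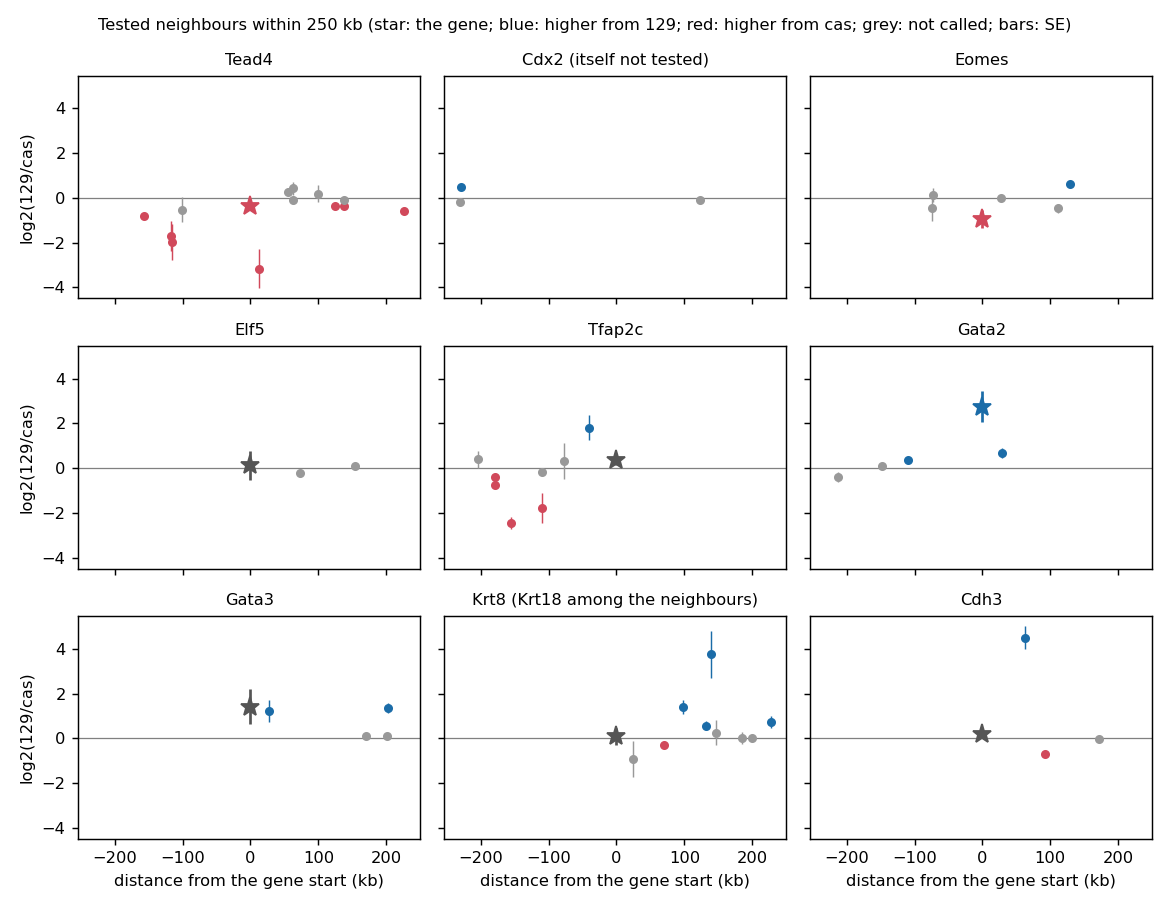
Each panel gives log2(129/cas) with its SE for the tested genes within 250 kb of a trophoblast gene (star) by distance in kb from its start. With columns scaled to the typical gene, 7 of the 13 Tead4 neighbours are called and lie below 0 (2 with 1 shared library size), and the star of Gata2 at 2.75 lies above its 4 neighbours.

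The Hippo pathway, which decides whether YAP and its TEAD partners act, was read well in these cells, and all 19 of its listed genes were tested. Relative to the typical gene, 6 of them were higher from 129 and 4 from cas, while 9 had no call. Their median log2 ratio was 0.11, beside 0.00 for all tested genes. The coactivator Wwtr1 (TAZ) had 0.24 (SE 0.06), the junction protein Amotl1 0.91 (SE 0.08) and the kinase cofactor Mob1b 0.32 (SE 0.09), all higher from 129. The kinase Stk3 had -0.80 (SE 0.05), the tumour suppressor Nf2 -0.39 (SE 0.06) and the scaffold Wwc1 -0.17 (SE 0.05), higher from cas on that scale. Reads of Wwc1 came more from 129 in both libraries, with shares of 52.9% and 52.5%, below the median gene. Wwc1 turned to 0.16 with 1 shared library size, and Nf2 had -0.06 there without a call. Wwtr1, Mob1b and Wwc1 were not called without the pairing of alleles or on the deposited RPKM, and Mob1b had 0.50 in library 1 and 0.14 in library 2. *Tead1*, the most read of the list, had 0.07 (SE 0.04, adjusted p = 0.12). It was called higher from 129 with column totals (0.17), 1 shared library size (0.40), voom weights (0.07) and in the binomial test (0.17). The counts of 6 and 4 of 19 lay near the 21.8% of all tested genes in each direction. Of the 19, 15 were higher from 129 and 2 from cas with 1 shared library size, beside 41.9% and 9.62% of all.

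Among 16 other factors and signals of trophoblast stem cells, 13 were tested. Limma called 0 higher from 129 and 5 from cas, leaving 8 without a call (median -0.08), beside 21.8% of all tested genes in each direction. With 1 shared library size 5 were higher from 129 and 2 from cas, beside 41.9% and 9.62% of all tested genes. Column totals as deposited gave 1 and 2 (27.0% and 16.6% of all). The counts were 1 and 3 in an exact binomial test within each library (27.6% and 17.7%). The number higher from cas was 2 without the pairing of alleles (11.4% of all) and 1 on the deposited RPKM (7.41%). Fgfr2, the receptor for the FGF4 that trophoblast stem cells depend on, had a ratio of -6.51 (SE 0.06) and most of the list's reads, but its annotated span overlaps 36 others on the same strand, so the origin of its reads is uncertain. Relative to the typical gene, the nuclear receptor Esrrb (-0.08, SE 0.03) and the Krüppel-like factor Klf5 (-0.16, SE 0.06) were higher from cas, by little. Their mean 129 shares were 54.3% and 52.9%, so 129 gave more of their reads. Both turned positive, at 0.25 and 0.16, with 1 shared library size. The signal transducer Smad3 had -0.07 without a call and 0.26 with 1 shared library size. *Tfap2a* had 65 reads in all and was not tested, and Elf3 and Sox2 had 0.

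Of 9 genes known to hold the trophoblast programme down, 1 was higher from 129 relative to the typical gene, 3 from cas, and 5 had no call (median -0.08). The background over all tested genes was 21.8% in each direction. Tet1, a methylcytosine dioxygenase, was higher from 129 with 0.74 (SE 0.03). Nanog (-0.35, SE 0.10), Sall4 (-0.47, SE 0.12) and the corepressor Trim28 (-0.23, SE 0.07) were higher from cas, with Sall4 at -0.21 in library 1 and -0.72 in library 2. None of these 3 was called without the pairing of alleles, on the deposited RPKM, or with 1 shared library size, where Nanog had -0.02, Sall4 -0.14 and Trim28 0.09. The maintenance methyltransferase Dnmt1 had -0.01 (SE 0.06) without a call, and 0.31 with 1 shared library size.

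In the list for the trophectoderm epithelium, 17 of 18 genes were tested, with 5 called toward 129, 3 toward cas and 9 in neither direction (median 0.04). All tested genes had 21.8% called in each direction. Desmosome genes were among those higher from 129, with Dsp at 1.28 (SE 0.12) and Dsg2 at 2.02 (SE 0.14), as was the membrane linker Ezr at 0.65 (SE 0.07). The desmosomal Pkp2 went the other way with -0.76 (SE 0.11), as did *Cdh1* and the tight junction gene Ocln (-0.64, SE 0.13). *Krt7*, the list's untested gene, had 18 reads in all.

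Most markers of differentiated trophoblast were scarcely read. Of 22 genes, 8 were tested, 9 had some reads but too few to test, and Tpbpa, Prl3b1, Plet1, Synb and Ctsq had 0. Hand1 had 5 reads, Prl3d1 7 and Gcm1 47 over both libraries. Of the 8 tested, 1 was called toward 129, 3 toward cas and 4 in neither direction, beside 21.8% of all tested genes each way. Since only 8 of 22 had reads enough for the test, their median of -0.62 (-0.05 in library 1 and -0.85 in library 2) does not stand for the list. Flt1, a VEGF receptor, was higher from 129 (0.66, SE 0.16; 0.96 in library 1 and 0.37 in library 2), but was not called without the pairing of alleles (adjusted p = 0.051 in limma) or on the deposited RPKM (adjusted p = 0.16). On the cas side, the imprinted Peg10 (-0.89, SE 0.10), Ovol2 (-1.71, SE 0.28) and Prl2c2 (-1.76, SE 0.59) were higher, of which Ovol2 and Prl2c2 were not called on the deposited RPKM. Both alleles of Peg10 were read, with 129 shares of 39.6% and 41.2%, and Prl2c2 had only 110 reads over both libraries. *Nrk* had 0.14 in library 1 and -0.83 in library 2, and no call. The reads of the list summed to 1730 from 129 and 1973 from cas in library 1, and to 1529 and 1797 in library 2. ES cell markers summed to 50254 reads from 129 and 43674 from cas in library 1. In library 2 their sums were 53051 from 129 and 45124 from cas. A few genes carried these sums: over both libraries Esrrb had 78520 reads, but Pou5f1 463, Utf1 321 and Sox2 0. The last 3 lay below the 4174 of Peg10. Of 10 ES cell markers 9 were tested, with 1 higher from 129 and 4 from cas. The share of all tested genes called was 21.8% in each direction. Esrrb, Tfcp2l1 (0.00, SE 0.04) and Zfp42 (-0.36, SE 0.04) had the most reads. The calls of Zfp42, Nanog and Esrrb toward cas depended on the scaling. With 1 shared library size Zfp42 had -0.03 and Nanog -0.02, neither called, and Esrrb 0.25. With the deposited column totals Zfp42 stayed called (-0.26, limma adjusted p = 1.2e-07), while Nanog (-0.24) and Esrrb (0.02) were not called. The lists are set side by side in the plot of ratios by list.

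**Figure D4:**
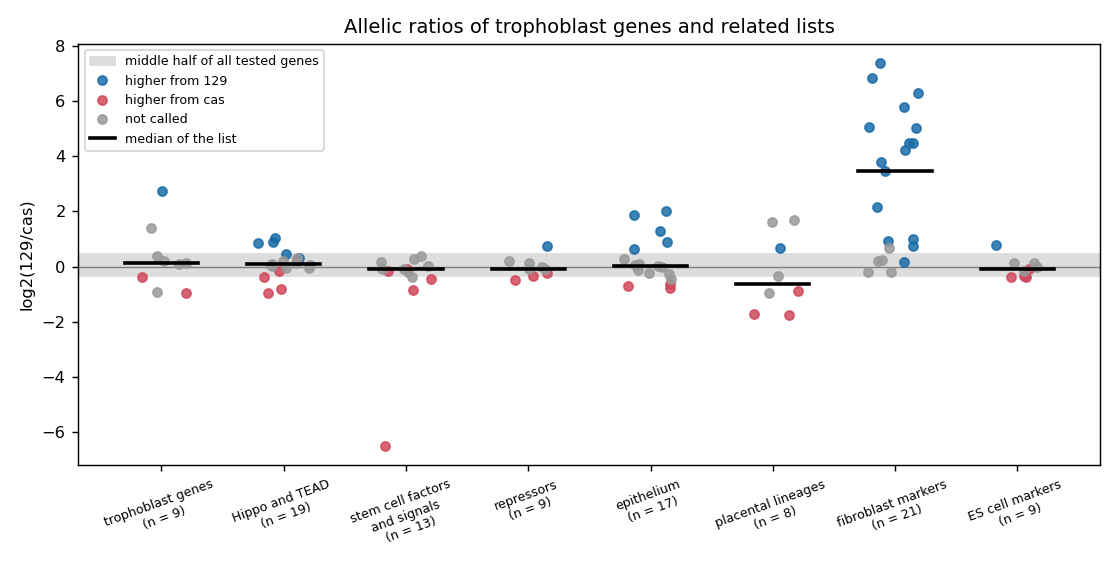
The vertical axis gives log2(129/cas) of each tested gene, by list, with a bar at the list's median and a grey band for the interquartile range of all 15509 tested genes (-0.35 to 0.47). The trophoblast genes have a median of 0.12, inside the band, and the fibroblast markers one of 3.45, above it.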

How the data were processed

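Strand-specific libraries of total nuclear RNA were read as 100 bp pairs and merged with earlier reads, per the labels' protocols. Alignment used Bowtie2 and build mm10, per the submitters' processing notes. The sources used here name no counting program or SNP set, nor whether strand was used. The values the authors deposited are RPKM, although per the file headers they are called counts: values times row length in kb summed to 999966.7 to 999996.2 per column. All values (100.0%, within 0.01 read) were multiples of the worth of 1 read in their column, which gave the reads back. The deposited lengths fit few of the genes beside them (67 rows to within 2 bp), so no RPKM is compared between genes. GENCODE M21 gave positions for 95.6% of rows.

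Here, limma 3.58.1 in R 4.3.3 was fitted to log2(CPM + 0.1) of the recovered reads over all 15509 rows with 20 reads in each library. Scaling used the trimmed mean of M values, variances had a trend, and the library was a block, since its alleles were read from 1 RNA. The Y chromosome (1570 rows) was left out. P-values were adjusted over all rows (Benjamini-Hochberg). Intervals on read shares are exact (Clopper-Pearson, scipy 1.17.1) and cover counting error only. The code was tested on simulated data. Members, lists and motifs were chosen with earlier results of these data known. Named list genes were up to 3 called in each direction and 1 uncalled, each with the most reads (3 for cell markers). Named neighbours were up to 3 called ones of a called member with the largest ratios, and named like genes the 2 nearest, symbols of predicted, small RNA and -ps pseudogenes aside. *Rpl18-ps2*, *Polr1d*, *Cdh1* beside *Cdh3*, *Hand1*, *Prl3d1*, *Gcm1*, *Pou5f1* and *Utf1* were named after their values were seen. Of the genes these rules name, 1 is not reported here. Alternatives were other scalings, pseudocounts, read minimums, voom weights, no block, an exact binomial test, the RPKM as deposited and each library alone.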

Additional observations from a re-analysis of the deposited data

How the results depend on the processing

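The direction of each called trophoblast gene was the same under each alternative that could test it (11 for *Tead4* and 10 for *Gata2* and *Eomes*) and in each library alone, but calls depended on the scaling. The median of all tested genes moved by 0.10 with the deposited column totals and by 0.32 with 1 shared library size. Among the 10 trophoblast genes, the number higher from 129 was 1 in the reported fit, and it became 2 with column totals, 3 with 1 shared library size, 4 in the exact binomial test and 0 with at least 100 reads, where 4 genes were tested. The number higher from cas was 2 in the reported fit and 1 with column totals, at least 100 reads, no filter or voom weights, and 0 with 1 shared library size, without the replicate block or on the deposited RPKM. *Eomes* had -0.85, -0.63, -0.95, -0.95, -0.92 and -0.57 and was no longer called with column totals, 1 shared library size, no filter, no replicate block, voom weights and the deposited RPKM. *Tead4* was no longer called with 1 shared library size (-0.04), no replicate block (-0.37) or the deposited RPKM (-0.34). *Gata3* was called in the binomial test (1.5), *Tfap2c* there (0.47) and with 1 shared library size (0.69), and *Cdh3* in both (0.32 and 0.54) and with column totals (0.32).

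Shares of all tested genes moved with the setting, from 21.8% in each direction. They were (129 first) 41.9% and 9.62% with 1 shared library size, 27.0% and 16.6% with column totals, and 27.6% and 17.7% in the binomial test. Without the replicate block they were 13.8% and 11.4%, and on the deposited RPKM 9.21% and 7.41%. Counts in the other lists moved as follows, 129 first. With 1 shared library size they were 15 and 2 for the Hippo list, 5 and 2 for stem cell factors, 4 and 0 for repressors, 9 higher from 129 for the epithelium, 3 for placental lineages, and 23 and 5 for neighbours. With column totals, stem cell factors had 1 and 2, repressors 1 higher from cas and placental lineages 2 higher from 129. The binomial test gave 10 higher from 129 for the Hippo list, 1 and 3 for stem cell factors, 1 higher from cas for repressors, 8 higher from 129 for the epithelium and 2 for placental lineages. Without the replicate block, stem cell factors had 2 and repressors 0 higher from cas, placental lineages 0 higher from 129, and neighbours 7 and 7. On the deposited RPKM, the Hippo list had 3 higher from 129, stem cell factors 1 and repressors 0 higher from cas, the epithelium 1 higher from cas, placental lineages 0 and 1, and neighbours 4 and 4. Pseudocounts of 0.5 and 1 gave 2 placental genes higher from 129. Tead1 was called higher from 129 with column totals, 1 shared library size, voom weights and in the binomial test. Esrrb had 0.02 with column totals and in the binomial test. With 1 shared library size the ratio also turned positive for Esrrb (0.25), Klf5 (0.16), Wwc1 (0.16), Smad3 (0.26), Trim28 (0.09) and Dnmt1 (0.31). The causes of these changes were not tested, apart from the scalings, which shift every gene by construction, and the filter at 100 reads, which removes genes. The binomial test has the same reference as the column totals, so part of its change is that of a scaling. Each library alone gives ratios but no test and no count of calls. *Cdx2*, *Krt18*, *Elf5*, *Gata3* and *Gata2* had at most 69 reads in a library, and wide intervals.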
